A study of Mus musculus with 4 samples.

Results

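This report describes the Meis binding sites that have another Meis site close by. A Meis peak was taken when its centre lay within 10 kb of the centre of another Meis peak on the same chromosome, whatever its score and whether or not a Prep peak overlapped it. The rule took 786 of the 5686 Meis peaks (13.8%) and left 4900 without such a neighbour. Linked from neighbour to neighbour, the 786 peaks formed 347 groups. The rule used the positions of the peaks, so the spacing and the group sizes below are descriptions. Scores, widths and overlap with Prep were not used by the rule, though scores and widths come from the same library.

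The data come from chromatin immunoprecipitation and sequencing (ChIP-seq), a method that recovers and sequences the DNA fragments attached to a chosen protein. The material was a suspension of single cells from the trunk of C57BL/6 embryos, wild type in every library, taken on embryonic day 11.5. The Meis library was made with antibodies against Meis1/2 (K830 and K844), so a peak does not say which of the Meis proteins was bound. The Prep library was made with an antibody against Prep1/2 (N15). Each antibody has 1 library and 1 peak list, and the labels do not say how many embryos were pooled. The libraries without antibody were not used here, and neither was any further TALE protein. A trunk holds many cell types, so neighbouring peaks may be bound in the same cells or in different ones, and these data cannot tell which.

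Meis and Prep proteins belong to the TALE class of transcription factors, named for a loop of extra amino acids in the homeodomain that binds DNA. They pair with Pbx proteins, and Meis also forms complexes on DNA with Hox proteins, the factors that give trunk segments their identity. Genes that direct development are often served by several separate regulatory elements, so one locus can carry several binding sites of a factor. In the vertebrate Hox clusters the genes themselves stand close together, and their regulatory elements lie between them and around them.

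The score of a peak is the authors' own value. Its scale is not stated, and scores were compared only within a list. Meis scores ran from 8.51 to 75.1 with a median of 10.7. Signal below the lowest score is not listed, so a peak without a neighbour may still have weaker binding nearby. With 1 library there is no replicate error for a score, and peaks are not replicates. No test was therefore made, and every difference below is a description of these lists. Intervals on shares are 95% Wilson intervals, which cover the counting of peaks only and treat neighbouring peaks as independent.

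Adjacent members were mostly a few kilobases apart. The 439 distances between adjacent centres inside groups had a median of 3541 bp (quartiles 1536 and 6329 bp). Distances under 1 kb made up 73 of them (16.6%), those under 2 kb 141 (32.1%) and those under 5 kb 282 (64.2%). The peaks without a neighbour had their nearest Meis peak at a median of 105216 bp. Distances between 250 bp and 2 kb were the most frequent. Per kilobase of distance there were 28 adjacent pairs up to 250 bp, 84 between 250 and 500 bp and 90 between 500 bp and 1 kb. There were 68 between 1 and 2 kb, and 27 between 9 and 10 kb. The number per kilobase was 28.1 between 10 and 20 kb and 22.2 between 20 and 50 kb. The distribution of distances thus shows no break at the 10 kb limit.

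**Figure D1:**
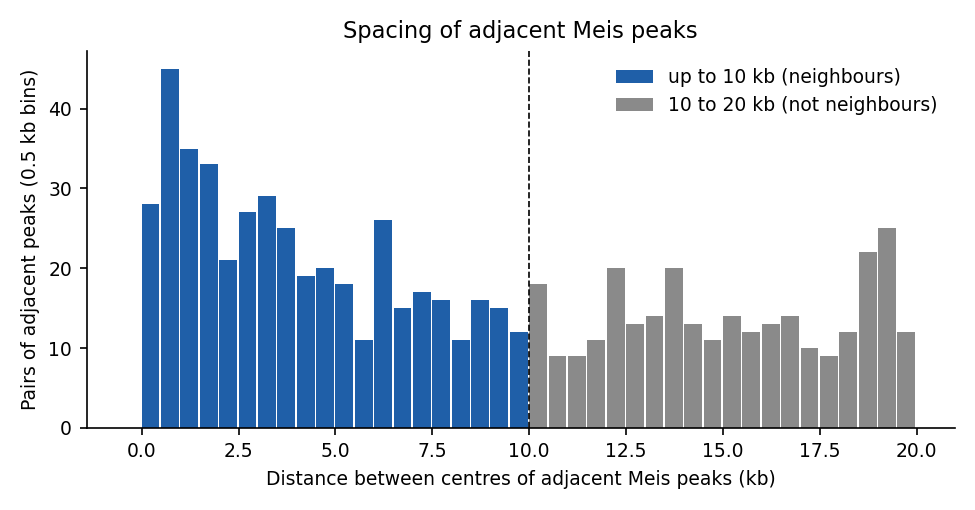
Number of pairs of adjacent Meis peaks (vertical axis) by the distance between their centres in 0.5 kb bins (horizontal axis, kb). Blue bars are neighbours under the rule and grey bars lie just beyond it. The first bin, up to 0.5 kb, holds 28 pairs. The counts then fall from 45 pairs between 0.5 and 1 kb to 12 between 9.5 and 10 kb, with 18 in the next bin.

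The closest members were calls that overlap or nearly touch. In 4 pairs of adjacent members the peaks overlapped each other. On chromosome 7 a peak of 66 bp at 28935353 to 28935418 (score 10.3) lay inside one of 283 bp at 28935249 to 28935531 (score 10.1), with centres 4.5 bp apart. A peak of 38 bp at 105911914 to 105911951 on the same chromosome (score 16.2) lay inside one of 311 bp at 105911784 to 105912094 (score 16.5), with centres 6.5 bp apart. The next pairs were 192 bp apart on chromosome 15 (94288113 to 94288317 and 94288272 to 94288542) and 203.5 bp apart on chromosome 12 (28566539 to 28566802 and 28566759 to 28566989). The fifth, on chromosome 12 at 25783522 to 25783691 and 25783741 to 25783936, had centres 232 bp apart and did not overlap. In all, 28 pairs had centres under 500 bp apart. Their higher-scoring peak had a median score of 12.7 and the other one 9.30, and in 4 of these pairs at least 1 peak overlapped a Prep peak.

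At the other end of the range, the pairs just inside the limit were separated by 9954 bp on chromosome 13, 9948 bp on chromosome 3 and 9910.5 bp on chromosome 8. Their scores were 20.6 and 21.0, 8.61 and 10.3, and 11.4 and 13.8. The pairs just outside it were separated by 10013.5 bp on chromosome 3, 10017 bp on chromosome 8 and 10089.5 bp on chromosome 2. Their scores were 28.1 and 16.5, 11.4 and 16.2, and 14.1 and 11.03. The chromosome 3 peak of 16.5 is itself a member, through another Meis peak 317.5 bp away on its other side. The scores on both sides of the limit overlap.

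Most groups were small. Of the 347 groups, 293 held 2 peaks, and these 586 peaks made up 74.6% of the members. A further 42 groups held 3 peaks (126 in all), and 6 groups held 4 (24 in all). Only 6 groups were larger, with 5, 6, 9, 9, 10 and 11 peaks, 50 in all. Groups of 2 spanned a median of 4.11 kb and groups of 3 a median of 7.19 kb. The longest group covered 35.7 kb.

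The largest group lay on chromosome 6 at 52108281 to 52128618 and held 11 peaks in 20.3 kb. In order along the chromosome their scores were 11.5, 43.1, 15.1, 20.3, 16.2, 27.3, 10.2, 14.4, 25.05, 12.2 and 20.6. All but 1 of these lay above the median of the list, and 5 were in its highest-scoring 10%. The distances between adjacent centres ran from 586.5 to 4565.5 bp, with a median of 1551 bp. The Prep peaks on the members with scores of 43.1, 27.3 and 20.6 each had a score of 5.25, near the lowest of the Prep list.

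Another group followed on chromosome 6 at 52140862 to 52176538, with 9 peaks in 35.7 kb. Its scores in order were 15.7, 16.1, 8.84, 18.1, 10.8, 20.1, 10.1, 16.5 and 10.7. The highest of them, 20.1, was below the 43.1 of the group before it, and 2 peaks were in the highest-scoring 10%. The median scores of both groups were close, at 15.7 here and 16.2 there. The distances between adjacent centres were longer than in that group, with a median of 3719 bp and a maximum of 9006 bp. The 20.1 peak alone overlapped a Prep peak (Prep score 7.22). With a limit of 20 kb both groups joined into 1 group of 20 peaks.

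On general knowledge of the mouse map, both groups lie at the HoxA cluster. In the same way, the groups described next on chromosome 11 and chromosome 2 lie at the HoxB and HoxD clusters. These placements were not computed, since no annotation of the mm9 build was used here. RefSeq's gene table for another build (GRCm38.p6) lists 11 HoxA genes on chromosome 6, 10 HoxB genes on chromosome 11, 9 HoxC genes on chromosome 15 and 9 HoxD genes on chromosome 2. Which exon, intron or promoter a peak falls in is not given here for the same reason.

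The group on chromosome 11 at 96180588 to 96213320 held 10 peaks in 32.7 kb. Its scores in order were 11.03, 14.5, 23.5, 11.5, 16.2, 12.5, 10.7, 24.4, 22.5 and 23.8. The peak at 96187344 to 96187550 and the last 3 had the high values. Of these last 3, the peaks of 24.4 and 22.5 overlapped Prep peaks, with Prep scores of 5.25 and 7.88. A separate group of 3 peaks lay nearby at 96155887 to 96168515, with a top score of 30.0. It was named after its values were seen.

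The group on chromosome 2 at 74572564 to 74591402 held 6 peaks in 18.8 kb, with scores of 15.3, 31.7, 19.9, 16.2, 12.4 and 10.8 in order. All 6 exceeded the median of the list. No Prep peak was listed anywhere in its span. A separate group of 2 peaks lay nearby at 74543961 to 74552716, its nearer centre 20043 bp away, and was named after its values were seen. Its scores were 18.3 and 9.99, and the peak of 9.99 overlapped a Prep peak (Prep score 7.22). On chromosome 15, where the HoxC genes are, the groups from 102 to 103 Mb were smaller, with 7 members in 3 groups, and 2 of them were named after their values were seen. One held 3 peaks at 102837622 to 102849403 with a top score of 30.0 and a lowest of 15.6, and none overlapped Prep. Another held 2 peaks at 102892028 to 102896355, with scores of 29.2 and 15.2, and 1 of them overlapped Prep.

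The group on chromosome 18 at 84236664 to 84256016 had the highest median score, 27.3, of the 6 groups of 5 or more. Its 9 peaks in 19.4 kb had scores of 10.04, 27.3, 28.4, 29.6, 30.7, 9.82, 19.3, 50.8 and 22.1 in order. Of these, 7 were in the highest-scoring 10% of the list. The peaks of 30.7, 50.8 and 22.1 overlapped Prep peaks with scores of 5.25, 7.22 and 6.57. On general knowledge of the map, this stretch is at Tshz1, which encodes a zinc finger protein of the teashirt family.

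The group on chromosome 8 at 28095188 to 28119834 stood out by its overlap with Prep rather than by its scores. Its 5 peaks had scores of 11.3, 14.5, 14.5, 36.9 and 10.7 in order, and all but the peak at 28104609 to 28104798 overlapped Prep. The Prep scores were 7.22, 13.1, 5.25 and 6.57. On general knowledge of the map this stretch lies close to Zfp703, which encodes a zinc finger protein of the same family as Zfp503.

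Of the 6 groups with 4 members, the 4 with the highest top scores completed the 10 groups named by size. The other two, on chromosome 2 at 34447277 to 34459454 and chromosome 5 at 151928774 to 151952417, had top scores of 17.0 and 11.6 and no Prep overlap. Scores of 14.9, 9.30, 25.7 and 70.9 stood in this order on chromosome 15 at 103120062 to 103135883. The last of these was 3rd in the whole list, and it and the 25.7 peak overlapped Prep (Prep scores 56.5 and 11.8). On chromosome 11 at 115098008 to 115107324 the scores were 39.3, 9.82, 9.19 and 8.96, so 1 strong peak stood beside 3 weak ones, and none overlapped Prep. On chromosome 14 at 22807840 to 22813808, which on general knowledge of the map is at Zfp503, they were 21.5, 9.79, 27.6 and 36.4. The 3 strong peaks of that group overlapped Prep (Prep scores 9.85, 8.54 and 7.22) and the weak one did not. On chromosome 14 at 23626637 to 23637267 the scores were 17.3, 8.96, 9.65 and 10.2, and none overlapped Prep. All 4 of these groups held at least 1 peak below the median of the list beside their highest one.

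**Figure D2:**
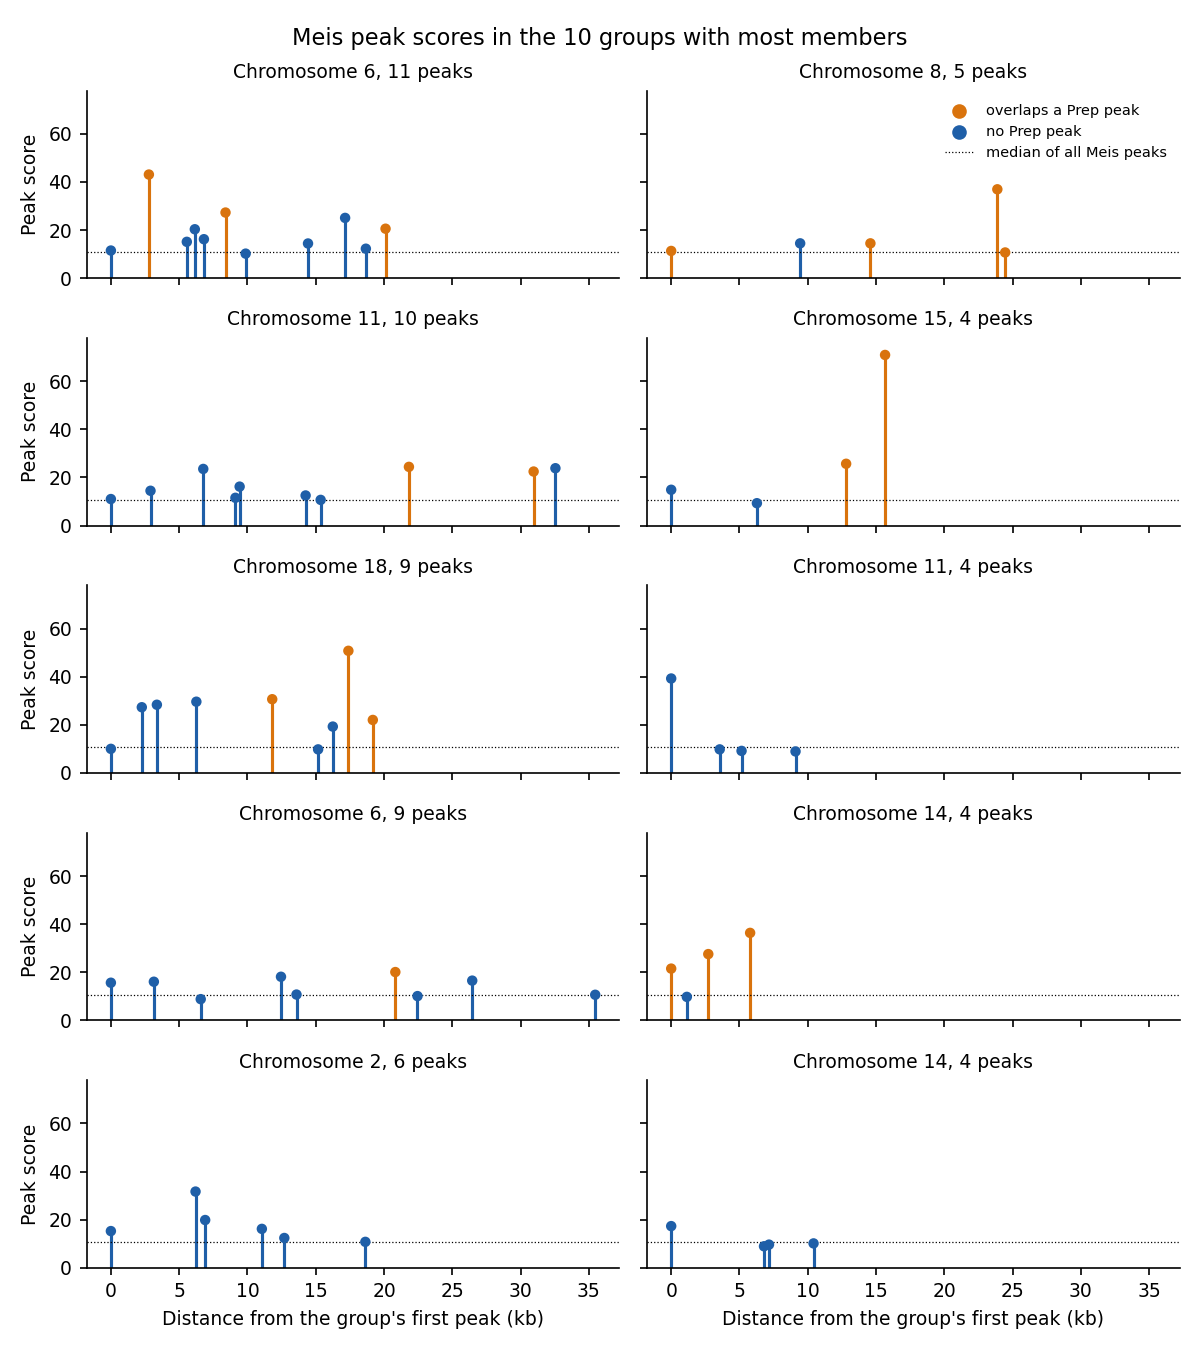
Score of each Meis peak (vertical axis) against its distance in kb from the first peak of its group (horizontal axis) for the 10 groups with most members, ties going to the higher top score. Orange peaks overlap a Prep peak, blue ones do not, and the dotted line is the median of all Meis peaks (10.7). The group on chromosome 18 has 7 of 9 peaks above 19, while the chromosome 11 group of 4 has 1 peak at 39.3 beside 3 below the line.

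Several of the strongest Meis peaks of the list had only much weaker neighbours. Their groups were picked by the top score, so a lower score at the neighbours follows in part from that choice. Members held places 1, 2, 3, 5 and 6 of the list by score. The strongest of all scored 75.1 (chromosome 11, 18774599 to 18774780), and the other members of its group scored 13.2 (18783532 to 18783733) and 10.5 (18785752 to 18785964). None of these overlapped Prep. On general knowledge of the map this group is at one end of Meis1, a gene that encodes one of the proteins the antibodies recognise. Of the 3 groups from 18 to 19 Mb of chromosome 11, only another one, at 18913144 to 18918737, had Prep overlap. There the peak of 35.1 overlapped Prep (Prep score 13.8) and that of 8.53 did not. That group was named after its values were seen.

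On chromosome 4 the peak of place 2 (150132706 to 150132887, score 71.3) had a neighbour with a score of 10.5 at a distance of 7518 bp. On chromosome 9 the peak of place 5 (61218275 to 61218434, score 65.8) had one with a score of 9.99 at 2924 bp. That group is at Tle3, again on general knowledge of the map, a gene for a corepressor of the Groucho family. On chromosome 11 the peak of place 10 (98830055 to 98830228, score 55.5) had one with a score of 16.4 at 604.5 bp. In each of these 3 pairs the strong peak overlapped Prep and the weak one did not. Only 1 of the 5 top-scoring groups of 2 or 3 held more than 1 peak of the highest-scoring 10%. It lay on chromosome 14, with peaks at 22723043 to 22723213 (score 63.4, place 6) and 22723635 to 22723847 (score 46.8, place 17). Their centres were 613 bp apart, and the former overlapped Prep (Prep score 27.6).

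The 3 highest-scoring peaks without a neighbour lay on chromosome 2 at 115456977 to 115457139 (score 67.3, place 4), chromosome 19 at 14965216 to 14965401 (score 59.95, place 7) and chromosome 8 at 27881020 to 27881202 (score 58.7, place 8). Their nearest Meis peaks were 12605, 113333 and 22747 bp away. The first of these was therefore just beyond the limit. Of the 100 highest-scoring Meis peaks, 32 were members and 68 were not.

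Across all groups, members scored slightly higher than other Meis peaks, and the gap was widest in the largest groups. The median score was 11.3 for members (quartiles 9.65 and 15.3) and 10.7 for peaks without a neighbour (quartiles 9.30 and 13.4). It was 11.03 in groups of 2, 11.96 in groups of 3, 10.9 in groups of 4 and 16.1 in groups of 5 or more, so groups of 4 (24 peaks) did not follow the order. Without the 6 groups of 5 or more peaks the median of the members was 11.03. Widths hardly differed, with medians of 206.5 bp for members and 210 bp for the others.

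**Figure D3:**
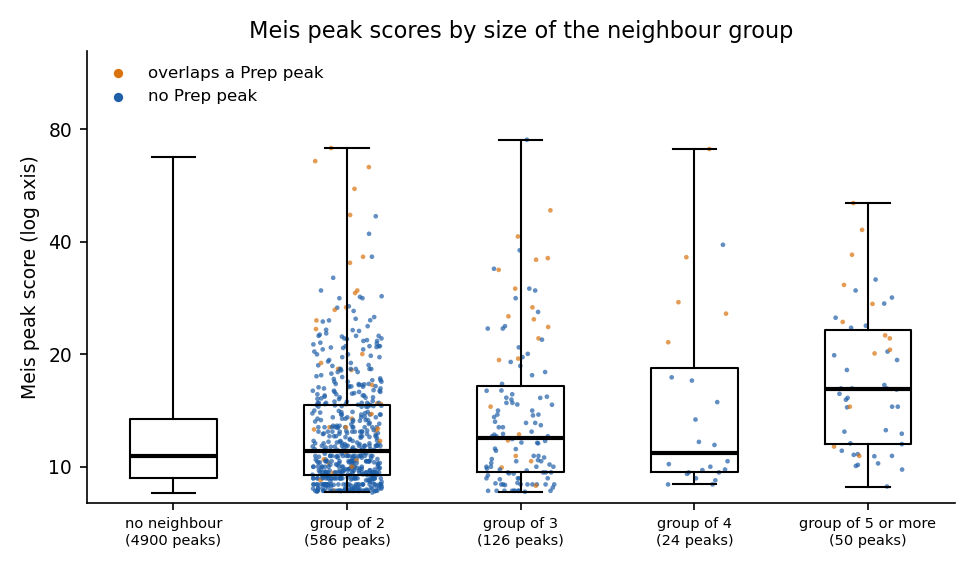
Meis peak score on a log axis for peaks without a neighbour and for peaks in groups of 2, 3, 4, and 5 or more. Boxes show the quartiles with the median as a thick line, whiskers reach the lowest and highest score, and points are the member peaks, orange where they overlap Prep. The median moves from 10.7 without a neighbour to 16.1 in groups of 5 or more, and all ranges overlap.

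The difference lay in the upper part of the score range. The highest-scoring 10% of the list, exactly 9.99% of all Meis peaks, took in 138 members (17.6%, 15.1 to 20.4%) and 430 of the peaks without a neighbour (8.78%, 8.02 to 9.60%). In groups of 2 the share was 13.99% (11.4 to 17.04%), and in groups of 5 or more 42.0% (29.4 to 55.8%). Seen from the scores, 24.3% of the highest-scoring 10% had a neighbour (20.9 to 27.99%) and 15.1% of the next 10% did (12.4 to 18.3%). In each of the 8 lower slices of 10% the share was between 10.9 and 13.6%. Below the upper end of the list, having a neighbour thus varied little with score.

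**Figure D4:**
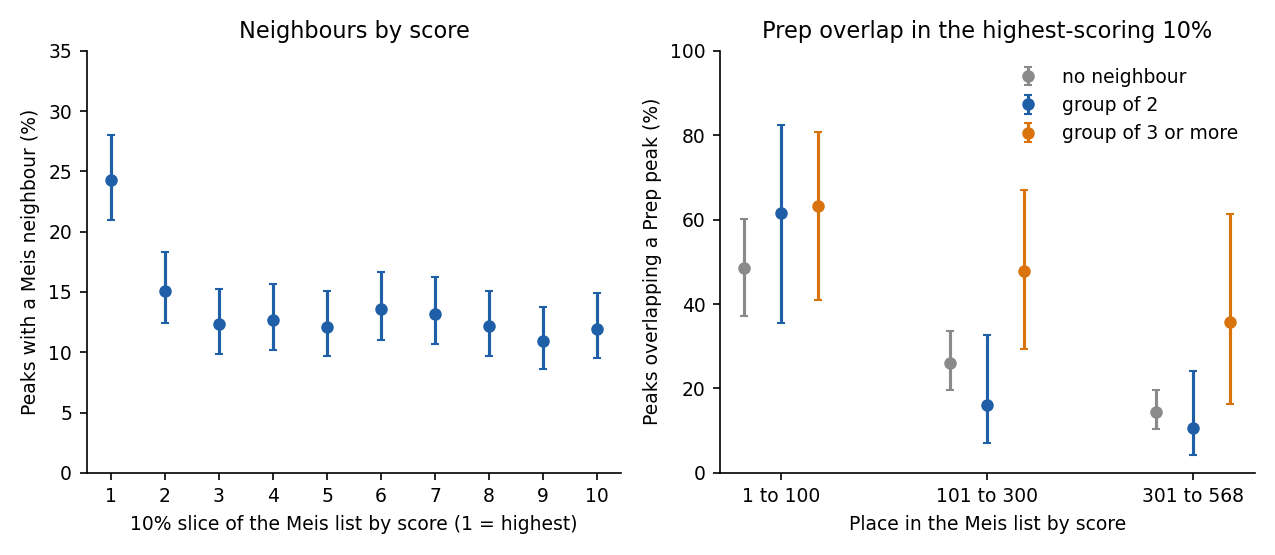
The left panel shows the share of Meis peaks with a neighbour (%) by 10% slice of the list in order of score, from 24.3% in the highest slice to 11.95% in the lowest. The right panel shows the share of peaks overlapping a Prep peak (%) for peaks of places 1 to 100, 101 to 300 and 301 to 568, by group size. Bars are 95% Wilson intervals, and groups of 3 or more lie above peaks without a neighbour in all 3 ranges, with overlapping bars in each.

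Scores of adjacent peaks were only weakly related. In the 293 groups of 2, the higher-scoring peak had a median of 13.4 (quartiles 10.7 and 18.3) and the other one 9.65 (quartiles 8.96 and 11.03). The ratio of the scores had a median of 1.25, and it exceeded 2 in 38 groups (13.0%). Both peaks were above the median of the list in 85 groups, 1 peak was in 133, and none was in 75. Across these groups Spearman's rho between the left and the right peak was 0.12. Both peaks of a group share a library and a locus.

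Taking all adjacent Meis peaks on a chromosome, rho was 0.08 for 73 pairs under 1 kb apart, 0.22 for 68 pairs at 1 to 2 kb and 0.25 for 141 pairs at 2 to 5 kb. It was 0.14 for 157 pairs at 5 to 10 kb, 0.09 for 281 pairs at 10 to 20 kb and 0.04 for 665 pairs at 20 to 50 kb. The median scores of the higher and the lower peak were 13.1 and 9.65 for pairs 10 to 20 kb apart, close to those of groups of 2. For the 138 members in the highest-scoring 10%, the nearest Meis peak was also in it in 31 cases (22.5%), against 100 of the 648 other members (15.4%). Peaks that are each other's nearest are both counted here, and the shares pool groups of 2 with larger groups. Of the 107 groups with a peak in the highest-scoring 10%, 19 held more than 1. This difference between the shares was not tested.

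**Figure D5:**
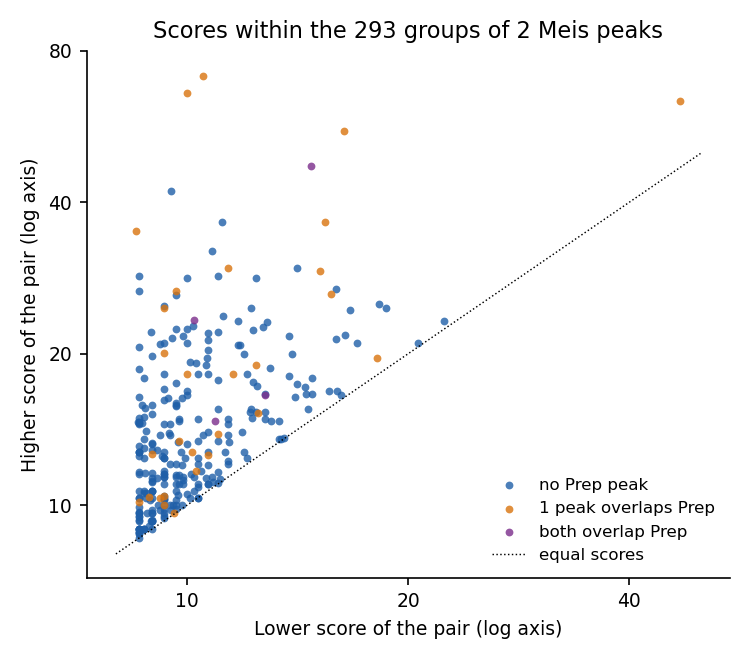
Higher score (vertical axis) against lower score (horizontal axis) of the peaks in each of the 293 groups of 2, both on log axes, coloured by how many of the peaks overlap Prep. Most points have a lower score near the floor of the list, and the highest scores, up to 71.3, are mostly paired with a lower score under 17.

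In groups of 3 or more, the best peak was at either end of the group in 33 of 54 groups and inside in 21 (38.9%). The share of positions that lie inside, averaged over the 54 groups, is 39.7%, so the best peak was inside about as often as the number of positions gives.

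Prep overlap differed by group size. A peak was counted as overlapping when it shared at least 1 bp with a Prep peak, which 7.16% of all Meis peaks did. Among members 75 of 786 did (9.54%, 7.68 to 11.8%), against 332 of 4900 peaks without a neighbour (6.78%, 6.11 to 7.51%). In groups of 2 the share was 6.31% (37 of 586, 4.62 to 8.58%), near that of all Meis peaks. In groups of 3 it was 15.9% (20 of 126, 10.5 to 23.2%), and in groups of 5 or more 26.0% (13 of 50, 15.9 to 39.6%). The excess among members thus came from groups of 3 or more, with 38 of 200 (19.0%, 14.2 to 25%). Without the 6 groups of 5 or more peaks, the share of members was 8.42% (62 of 736, 6.63 to 10.7%). When Meis peaks were compared within 10% slices of the list by score, the share of members was 1.02 percentage points higher on average (-1.08 to 3.13). The slices went both ways. In the highest-scoring slice it was 32.6% for members against 23.7% for the others, but in the next it was 3.49% against 8.28%, and in the one after that 5.71% against 10.04%.

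Prep overlap was more frequent at high Meis scores, with 23.7% of the peaks without a neighbour in the highest-scoring 10% and 5.15% in the rest. Groups of 3 or more were therefore also set against other peaks of similar score. At places 101 to 300 of the list, 11 of 23 peaks in groups of 3 or more overlapped Prep (47.8%, 29.2 to 67.0%), against 38 of 146 without a neighbour (26.0%, 19.6 to 33.7%) and 5 of 31 in groups of 2 (16.1%, 7.09 to 32.6%). The median scores were 24.8, 24.5 and 24.5. Groups of 5 or more gave 9 of those 23 peaks, of which 4 overlapped Prep. At places 301 to 568 the numbers were 5 of 14 (35.7%, 16.3 to 61.2%), 31 of 216 (14.4%, 10.3 to 19.7%) and 4 of 38 (10.5%, 4.17 to 24.1%). Among the 100 highest they were 12 of 19 (63.2%, 41.0 to 80.9%) and 33 of 68 (48.5%, 37.1 to 60.2%). In groups of 2 the share there was 61.5% (8 of 13, 35.5 to 82.3%), near that of groups of 3 or more. In the other 9 slices of the list, 10 of 144 peaks in groups of 3 or more overlapped Prep (6.94%, 3.82 to 12.3%), against 230 of 4470 without a neighbour (5.15%, 4.54 to 5.83%). The intervals overlap in each of these ranges. Over the highest-scoring 10% as a whole, 28 of 56 peaks in groups of 3 or more overlapped Prep (50%, 37.3 to 62.7%), against 102 of 430 without a neighbour (23.7%, 19.9 to 27.96%) and 17 of 82 in groups of 2 (20.7%, 13.4 to 30.7%). There the interval of groups of 3 or more lies above the others, which is not a test. The median Meis scores were 25.5 against 21.7 and 22.1, so scores were not matched over this wide slice. The comparison by group size within slices was not planned beforehand. Peaks of the same group share a locus and are not independent, and 21 of these 56 peaks lay in groups of 5 or more.

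Within a group, it was mostly the stronger peak that overlapped Prep. This direction is not particular to groups. Peaks without a neighbour also overlapped Prep more often in the highest-scoring 10% than in the rest (23.7% against 5.15%). Of the 293 groups of 2, 260 had no Prep overlap, 29 had it at 1 peak and 4 at both. Where 1 peak overlapped, it was the higher-scoring one in 23 of 29 groups. Of the 54 groups of 3 or more, 23 had some Prep overlap, and in 20 of these the best peak was among the overlapping ones. In those 23 groups the overlapping peaks had a median Meis score of 24.0, and the 62 others 11.96. No group of 3 or more had Prep on every member.

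The 4 groups of 2 with Prep on both peaks were named after their values were seen. On chromosome 11, at 120092867 to 120093106 and 120093998 to 120094170, the Prep scores were 123 and 68.3, while the Meis scores were only 10.9 and 14.7. On chromosome 14, at 23468955 to 23469139 and 23470499 to 23470712, the Meis scores were 47.2 and 14.8 and both Prep scores 5.91. On chromosome 10, at 86949090 to 86949288 and 86951621 to 86951792, they were 10.2 and 23.4 with Prep scores of 5.25 and 9.85. On chromosome 3, at 37815856 to 37816118 and 37816173 to 37816436, a single Prep peak with a score of 5.25 reached both Meis peaks. This was the only Prep peak to do so, and the 75 overlapping members thus met 74 Prep peaks.

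The Prep peaks met by members were mostly weak in their own list. Their median score was 7.88, the same as at Meis peaks without a neighbour, where the median of the whole Prep list was 10.5. By group size the medians had no order, with 7.22 at groups of 2, 10.2 at groups of 3, 9.85 at groups of 4 and 6.57 at groups of 5 or more. Prep peaks that overlap no Meis peak were about as frequent near members as near other Meis peaks, though not in every group size. The centre of such a peak lay within 10 kb of 3.22% of all Meis peaks, 26 of 786 members (3.31%, 2.27 to 4.80%) and 157 of the peaks without a neighbour (3.20%, 2.75 to 3.74%). It was 2.39% in groups of 2 (14 peaks, 1.43 to 3.97%) and 9.52% in groups of 3 (12 of 126, 5.53 to 15.9%). For groups of 4 or more it was 0 of 74 peaks, and by the limit of 3 counts the share could be up to 4.05%. That limit counts peaks as independent, which peaks of the same group are not, so the share could be higher.

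Members were found on all chromosomes with Meis peaks except the X chromosome. The share of Meis peaks with a neighbour was highest on chromosome 6, with 64 of 333 (19.2%, 15.3 to 23.8%), 20 of them in the HoxA groups. It was 18.5% on chromosome 14 (51 of 276), 17.8% on chromosome 11 (60 of 337) and 17.7% on chromosome 8 (58 of 327). It was lowest among autosomes on chromosome 3, with 23 of 306 (7.52%, 5.06 to 11.03%). On the X chromosome it was 0 of 40, and by the limit of 3 counts the share could be up to 7.50%. Members come at least in pairs, so that limit, which counts peaks as independent, may be too low. The shares were not adjusted for how densely a chromosome carries Meis peaks.

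Some groups lay in the same stretch of the genome as other groups. The genome was divided into windows of 1 Mb, and 1811 windows held a Meis peak, with a median of 2 peaks. Of these windows, 263 held a member, 56 held at least 2 groups and 14 held at least 3, so most windows with members held a single group. The window from 23 to 24 Mb of chromosome 14 held 34 Meis peaks, of which 19 were members in 8 groups, and the window before it held 21 peaks with 13 members in 5 groups. The window from 27 to 28 Mb of chromosome 8 held 30 peaks, of which 17 were members in 7 groups. These stretches, beside Zfp503 and Zfp703 on general knowledge of the map, differ in form from the HoxA window on chromosome 6, which held 24 peaks with 20 members in only 2 groups. In the windows with 8 and 7 groups, the highest scores among members were 47.2 and 37.97. On chromosome 1, the window from 38 to 39 Mb held 10 members in 5 groups, and their highest score was 15.5. These windows were picked by their number of members, and windows rich in Meis peaks have more neighbours for that reason alone.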

How the data were processed

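Meis and Prep ChIP-seq peak lists from embryonic trunk were used, 1 library each. Reads were aligned with BWA to mm9, per the submitters' processing notes. Per the file headers and columns, each peak's name includes "pics". Which settings the peak caller ran with, whether it used the input and what was filtered later is not given in the sources used. The deposited values are a score per peak, the authors' own, which is not a count, and the start and end of each peak. Read totals are unknown, so no depth stands behind a score.

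Starts were raised by 1 on the assumption of BED positions. All positions are mm9. The tables at hand are of another build (GRCm38.p6), so no sequence, motif or gene distance was computed and no sequence is printed. Groups are chains of peaks with adjacent centres up to 10 kb apart. The named peaks are the 10 groups with most members (ties to the higher top score), the 5 groups of 2 or 3 with the highest top score, the 5 closest pairs, the 5 highest members, the 3 pairs on either side of the limit and the 3 highest peaks without a neighbour. The rule also named groups of 3 or more with Prep on every member, of which there were 0. Places are ranks by score, 1 being the highest. The members and lists were chosen with earlier results of these data known. Differences carry no test. The interval of the difference within 10% score slices is a 95% normal interval for counting error. The grouping was tested on simulated lists and recovered the planted groups. Python 3.11.15, numpy 2.4.6, pandas 2.3.3, scipy 1.17.1 and matplotlib 3.10.9 were used. Alternatives were distances of 5 and 20 kb, distances between edges, the highest-scoring 50% of either list, autosomes only, joined peaks and other overlap rules.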

Additional observations from a re-analysis of the deposited data

How the results depend on the processing

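The number of members depended on the distance and on the length of the list. It was 517 at 5 kb, 1270 at 20 kb and 285 in the upper 50% of Meis scores, and the number of groups at 20 kb and in that shorter list was 550 and 121. The largest group had 20 peaks at 20 kb, and 4 when groups of 5 or more were left out, which follows from leaving them out. The median distance to the nearest Meis peak was 1857 bp at 5 kb and 6989 bp at 20 kb. The difference of median scores, 0.597 in the data as reported, was 0.345 both at 20 kb and without groups of 5 or more, and 1.72 in the upper 50% of Meis scores. The Prep share of members was 2.77 percentage points above that of other peaks (0.764 to 5.12). It was 6.41 points above in the upper 50% of Meis scores and 0.279 points with the upper 50% of Prep scores, where the difference within 10% score slices turned to -0.0825 points. The cause of these changes was not tested. Of the 70 alternative values, 55 stayed within the limits set (1.5 times the value, or the counting interval of a share), 14 moved and 1 turned its sign. Some of the 55 were fixed in advance. No member lies on the X chromosome, so autosomes only could not change the members, groups, largest group or median nearest distance. Leaving out groups of 5 or more and reducing overlapping Meis calls to 1 were chosen after seeing the data. No paired analysis was possible because each antibody has 1 library and no test was made. A Meis site scoring under 8.51 is not listed, so weaker neighbours are not counted. The depth is unknown.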
